A study of Schizosaccharomyces pombe with 25 samples.

Results

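Non-coding RNA genes that lie antisense to protein-coding genes were taken from the gene annotation deposited with a chromatin immunoprecipitation study of the fission yeast Schizosaccharomyces pombe. A non-coding RNA (ncRNA) gene was counted when its span, from its first to its last annotated base, shared at least 1 base with the span of a protein-coding gene on the opposite strand of chromosome I, IIc or III. By this rule 960 of the 1536 nuclear ncRNA genes (62.5%) were antisense genes. They formed 1182 pairs with 1087 of the 5123 nuclear protein-coding genes, called partners here, so that 21.2% of coding genes had an antisense ncRNA gene over at least 1 base. A further 143 ncRNA genes overlapped a coding gene on the same strand only, and 433 overlapped no coding gene.

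The study asked how the histone variant H2A.Z (Pht1) and the Swr1 remodelling complex that deposits it relate to the centromeric histone CENP-A (Cnp1). It precipitated CENP-A from 4 samples labelled cc2∆:cc1 (pht1∆, swr1∆, msc1∆ and wt, 1 each) and from 5 without that label (pht1∆, swr1∆ and msc1∆, 1 each, and 2 wt), H2A.Z from 12 samples (swr1∆, msc1∆ and wt, 4 each), and Swr1 and Msc1 from 2 wt samples each. The tagged proteins were H2A.Z-myc, Swr1-myc and Msc1-flag. The files used here describe a modified reference genome, in which IIc takes the place of chromosome II, and hold no value of a sample, so no genotype is compared and sequencing depth is unknown here.

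An antisense RNA is transcribed from the strand opposite to a gene and can pair with that gene's messenger RNA. Transcription across a promoter or through a gene body can also interfere with transcription of the gene itself, and in fission yeast antisense transcription is known for genes that are kept silent until meiosis. H2A.Z has been linked in this yeast, together with heterochromatin factors and the exosome, to keeping antisense RNA low. An annotated gene span says where such an RNA was mapped and not how much of it is made.

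Short coding stretches under antisense genes show what the overlap means at the level of bases. The DNA of rec7 (a meiotic recombination gene), ste6 (an exchange factor for Ras in mating), hta1 (a histone H2A gene) and rad8 (a DNA repair gene) was read from RefSeq assembly ASM294v3 at that assembly's own coordinates, since these 4 partners have a start or a stop codon under an antisense gene. In each line the start or stop codon, or its complement on the ncRNA strand, stands in capitals, and each is written 5′ to 3′.
rec7 start, gene strand, chrIII:1549010-1549069 (−): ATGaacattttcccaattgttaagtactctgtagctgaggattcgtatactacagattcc
rec7 start, strand of tos1 and SPNCRNA.1203 (+): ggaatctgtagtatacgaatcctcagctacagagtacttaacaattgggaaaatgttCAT
ste6 start, gene strand, chrIII:1766086-1766145 (+): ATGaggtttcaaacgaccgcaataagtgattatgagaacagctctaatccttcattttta
ste6 end, gene strand, chrIII:1768762-1768821 (+): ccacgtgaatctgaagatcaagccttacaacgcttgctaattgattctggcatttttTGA
hta1 start, gene strand, chrIII:1411863-1411922 (−): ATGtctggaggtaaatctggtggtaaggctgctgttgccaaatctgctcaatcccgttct
hta1 end, gene strand, chrIII:1411524-1411583 (−): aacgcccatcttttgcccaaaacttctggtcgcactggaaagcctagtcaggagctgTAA
rad8 end, gene strand, chrI:170972-171031 (−): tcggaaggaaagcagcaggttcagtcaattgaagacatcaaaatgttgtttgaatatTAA
rad8 end, strand of SPNCRNA.617 (+): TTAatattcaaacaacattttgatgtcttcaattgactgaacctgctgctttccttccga

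The ncRNA strand carries the codon only as its reverse complement, so that the start codon of rec7 is read as CAT within tos1. SPNCRNA.1227 spans both ends of ste6 and SPNCRNA.1194 both ends of hta1, while SPNCRNA.617 enters rad8 from its 3′ end. A gene that begins inside its partner looks different. SPNCRNA.1206 starts within the coding sequence of nup211, which encodes a nuclear pore protein. Its first 60 bases are given next on both strands in the same assembly, with no codon marked because neither codon of nup211 lies under it.
SPNCRNA.1206 start, ncRNA strand, chrIII:1570698-1570757 (−): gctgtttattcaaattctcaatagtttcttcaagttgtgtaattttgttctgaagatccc
nup211, gene strand of the same bases (+): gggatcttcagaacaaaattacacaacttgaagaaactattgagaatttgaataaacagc

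The most layered loci were rec7 and eta2, with 4 antisense genes each. rec7 (SPCC1753.03c) lay on the reverse strand of chromosome III from 1547051 to 1549069 in 3 exons. SPNCRNA.1203 (1545574 to 1549995, forward strand, 4422 bases) covered it whole and ran 926 bases past its start. tos1 (SPNCRNA.69, 1547928 to 1549537) covered its 5′ end and 96.1% of its coding bases, tos3 (SPNCRNA.132, 1546777 to 1547989) covered its 3′ end and 10% of its coding bases, and tos2 (SPNCRNA.131, 549 bases) lay inside it. So each of the 4 position classes occurred once over rec7.

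eta2 (SPAC31G5.10), which RefSeq describes as a termination factor of RNA polymerase I, lay on the forward strand of chromosome I from 3002057 to 3003766 in 1 exon. SPNCRNA.872 (3001750 to 3004335, reverse strand) covered it whole and SPNCRNA.72 covered its 5′ end and 61.2% of it. SPNCRNA.73 (422 bases) and SPNCRNA.74 (783 bases) lay inside it. As drawn in the map, at both loci each antisense gene overlaps at least 1 other antisense gene, so those at a locus are not independent of one another.

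**Figure D1:**
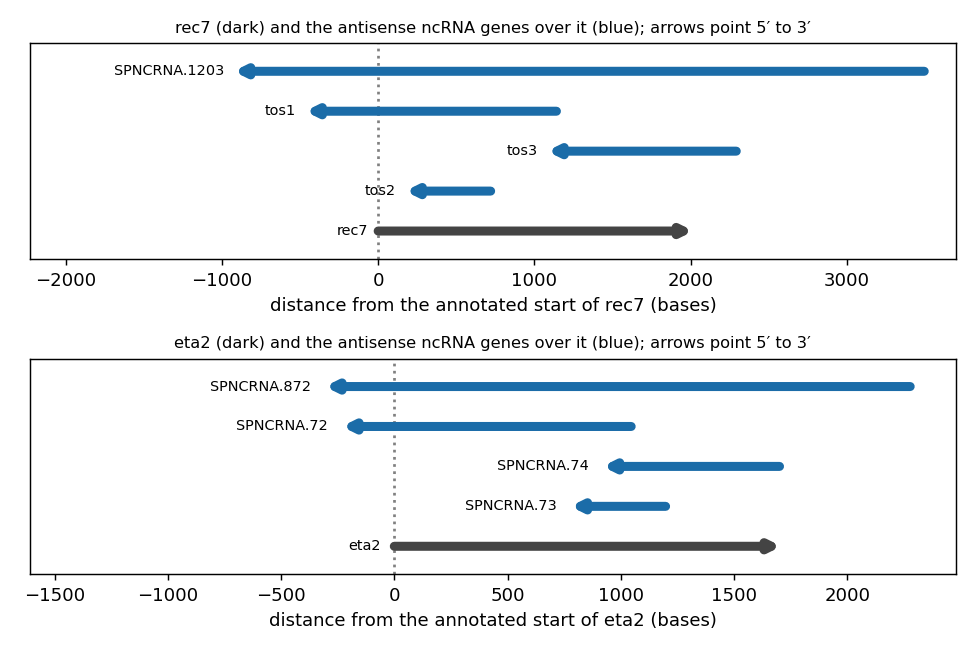
Maps of rec7 and eta2 with the antisense ncRNA genes over them, as distance in bases from the annotated start of the coding gene; arrows point from 5′ to 3′. At each locus 1 ncRNA gene (SPNCRNA.1203 over rec7, SPNCRNA.872 over eta2) spans the whole coding gene and 3 others cover parts of it.

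Of the other partners, 3 had 3 antisense genes. mre11, which encodes the nuclease of DNA break repair, carried SPNCRNA.646 over its 5′ end, SPNCRNA.647 inside it and SPNCRNA.648 over its 3′ end, covering 18.5%, 36.3% and 17.5% of its 4811 bases. SPNCRNA.647 alone reached coding bases of mre11 (65.4% of them). The other such partners were SPAC1B3.04c, where SPNCRNA.1037 covered 97.4% of the gene, and SPAC4F10.16c, a long gene of 6150 bases whose antisense genes covered at most 12.1% each and 0 coding bases. There were 83 partners with 2 antisense genes and 999 (91.9%) with 1.

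Antisense genes lay more often over the 5′ end of a partner than over its 3′ end. In 487 of the 1182 pairs (41.2%) the ncRNA gene covered the partner's 5′ end only, in 317 (26.8%) its 3′ end only, in 138 (11.7%) both ends, and in 240 (20.3%) it lay inside the partner. Over the 5′ end, the ncRNA gene is transcribed outward across the start of the partner, and over the 3′ end it enters the partner from downstream. The ncRNA gene was on the forward strand in 252 of the 5′ pairs and on the reverse strand in 235, with 150 and 167 for the 3′ pairs. The order of the classes was the same on chromosomes I, IIc and III, where 5′ pairs made up 41.5%, 42.4% and 38.2% and 3′ pairs 27.4%, 24.2% and 30.5%. All these counts enumerate a single annotation, so no replicate error applies and no test was made. With the coding span in place of the gene span, the share of pairs covering both ends was 39.2% and that of pairs inside 5.47%. These are shares of the 822 pairs left, since 360 of the 1182 pairs met no coding base. In the pairs left, transcript ends beyond the coding bases no longer count.

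**Figure D2:**
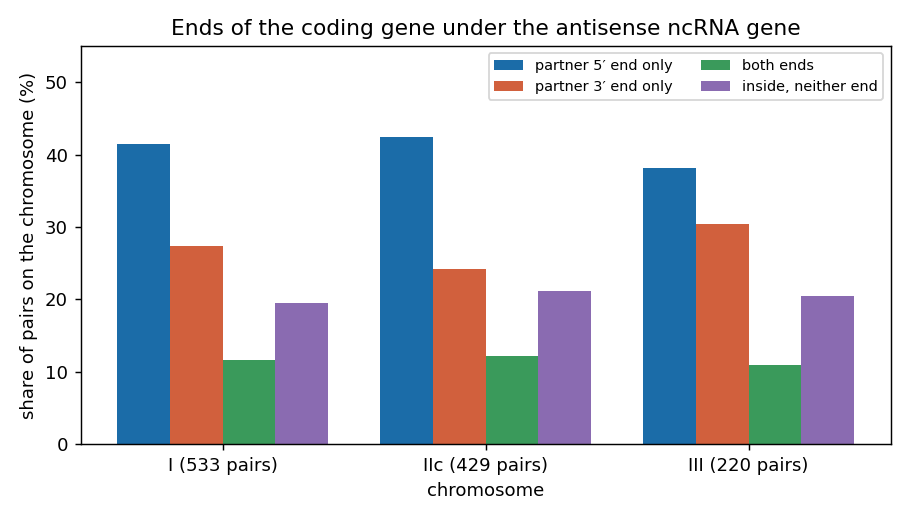
Share of pairs on each chromosome (%, bars) in which the antisense ncRNA gene covers the partner's 5′ end only, 3′ end only, both ends, or neither. The 5′ class is the tallest bar on all 3 chromosomes, at 41.5% on I, 42.4% on IIc and 38.2% on III.

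In 5′ pairs the ncRNA gene began a median of 595 bases inside the partner (quartiles 252.5 and 1060) and ran a median of 477 bases past its start (quartiles 179.5 and 1076). The start of the partner was therefore inside the span of these ncRNA genes, with 0 to 4302 bases of the DNA before it. Promoters lie before the start of a gene, but none was mapped here. SPNCRNA.1546 over sfc3, which encodes a subunit of the transcription factor TFIIIC, had the longest 5′ overlap at 3781 bases, or 88.2% of the gene, and ran 192 bases past its start. SPNCRNA.1625 covered 3298 bases of mbx2, which encodes a MADS-box transcription factor, and reached 0 coding bases of it. Further long 5′ overlaps were SPNCRNA.1447 over uds1 (a septation gene, 99% covered), SPNCRNA.577 over SPBC1652.02 (91.4%) and SPNCRNA.1041 over ure2 (97.2%).

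The 3′ pairs began a median of 576 bases beyond the partner's end and reached a median of 566 bases into it. SPNCRNA.617 (chromosome I, 170237 to 174473) covered 3985 bases of rad8, or 94.6%, ending 228 bases short of its start. SPNCRNA.1421 covered 3513 bases of ppk31, a protein kinase gene by name, and SPNCRNA.1451 covered 3306 bases of cdc28, an RNA helicase gene. dis1, known for its microtubule-binding product, was covered over 3283 bases by SPNCRNA.1132, and SPCC553.08c over 3239 bases by SPNCRNA.1126. Coding bases lay under the ncRNA gene in 180 of the 317 pairs of this class (56.8%), against 304 of 487 (62.4%) in the 5′ class.

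Genes covered from end to end were shorter than partners at large. The median partner length in this class was 1366.5 bases, against 2059 over all pairs, and the ncRNA genes were longer (median 2293.5 against 1320.5 bases over all pairs). Both differences are in part by construction, since an ncRNA gene must be at least as long as a partner that it spans. psm3, which encodes a cohesin subunit, lay wholly under SPNCRNA.725 (chromosome I, 1220911 to 1225530), and smc6, of the related complex for DNA repair, wholly under SPNCRNA.1150 (chromosome III, 652645 to 656485). SPNCRNA.1150 was closely matched to smc6, running 3 bases past its start and 65 past its end. The other long pairs of this class were prp22, a splicing helicase gene, under SPNCRNA.724, mcp5, the gene for an anchor of dynein, under SPNCRNA.1397, and ste6 under SPNCRNA.1227. sgo2, a shugoshin gene of chromosome segregation, was covered by SPNCRNA.930.

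Antisense genes inside a partner had a median span of 1081 bases and covered a median of 44.3% of it. The longest overlaps of all were of this kind. SPNCRNA.1206 (chromosome III, 1565774 to 1570757) took up 4984 of the 5731 bases of nup211, or 87%, and SPNCRNA.836 took up 4786 bases, or 74.4%, of myp2, which encodes a myosin II heavy chain of the cytokinetic ring. SPNCRNA.1177 covered 90.9% of nte1, SPNCRNA.609 covered 95.4% of SPAC11D3.14c and SPNCRNA.1226 covered 94.9% of SPCC1450.09c. Of the 240 pairs, 105 (43.8%) had the partner's start codon under the ncRNA gene and 88 (36.7%) its stop codon.

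Along scaled partners, coverage was highest near the start and fell toward the end. The first of 50 equal parts of the partner lay under the ncRNA gene in 52.3% of pairs, the middle part in 46.3% and the last in 39%. In the 50 bases just before the partner coverage was 51.5%, against 36.7% in the 50 bases just after it. At 1000 bases away it was 13.4% upstream and 10.3% downstream.

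**Figure D3:**
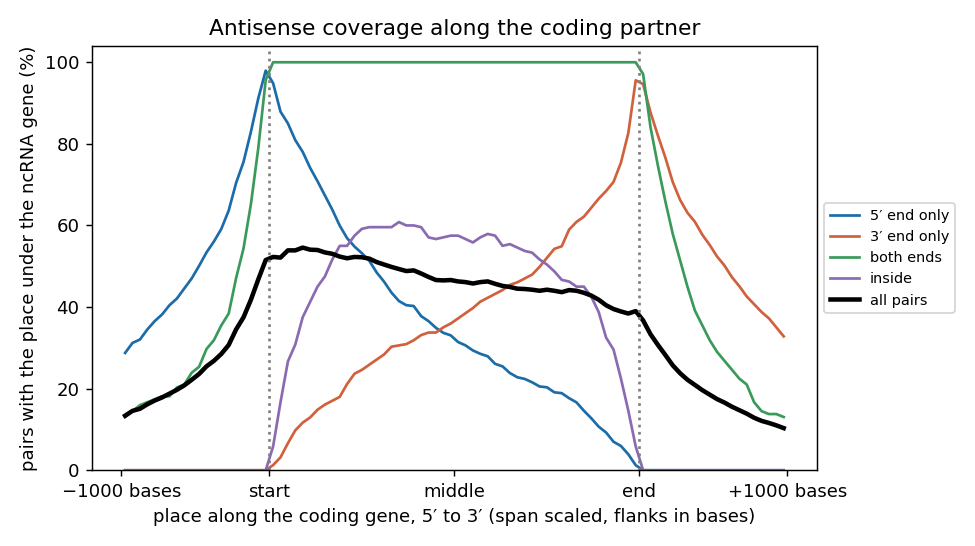
Share of pairs (%) in which each place along the coding gene lies under the antisense ncRNA gene, with gene spans scaled to equal length and 1000 bases of flank on each side; coloured lines are the 4 position classes and the black line all 1182 pairs. The black line stands at 52.3% at the partner's start and 39% at its end.

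Most antisense genes crossed protein-coding sequence. At least 1 coding base of a partner lay under 745 of the 960 antisense genes (77.6%), a start codon under 565 (58.9%), a stop codon under 465 (48.4%) and all coding bases of a partner under 308 (32.1%). The remaining 215 (22.4%) met only transcript ends or introns of their partners. Seen from the coding genes, 323 of the 1087 partners (29.7%) had every coding base under antisense genes, and 297 had 0 coding bases covered. The median partner had 44.7% of its span covered, with quartiles of 16.4% and 86.2%, and 144 (13.2%) were covered whole. The distribution was wide, with 195 partners (17.9%) covered over less than 10% of their span.

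Antisense genes themselves lay mostly within coding genes. The median antisense gene had 88.4% of its span over partners (quartiles 63.07% and 100%), 276 (28.8%) lay over partners entirely, and 52 (5.42%) had less than 10% there. Its start lay inside an opposite-strand coding gene in 722 cases (75.2%). In 180 cases (18.8%) it lay between genes with the 5′ end of an opposite-strand coding gene behind it, at a median distance of 176 bases and within 300 bases in 114 of them. This is the arrangement of a divergent gene pair, from which the ncRNA gene runs into the next coding gene. Just 35 (3.65%) started behind the 3′ end of a coding gene of their own strand, and 23 (2.40%) inside such a gene. In all, 148 antisense genes (15.4%) also overlapped a coding gene of their own strand.

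Antisense genes with more than 1 partner usually bridged neighbours. There were 204 with 2 partners (21.2%) and 9 with 3. Of those with 2, 140 covered the 5′ end of 1 gene and the 3′ end of the next gene of the same strand, with a median of 122 bases between the 2 partners, and in 34 of these cases the partners themselves overlapped. SPNCRNA.1626, of 5113 bases, covered 2635 bases of mbx2 from its 3′ end and 1261 bases of SPBP8B7.32 from its 5′ end. SPNCRNA.1451 joined cdc28 to pmt1 in the same way. All 9 with 3 partners are named by rule. SPNCRNA.829 spanned SPAC19A8.14 whole and reached into usp101 and trp2, a tryptophan synthesis gene. SPNCRNA.1628 spanned ppm1 between set6 and los1, and SPNCRNA.1471 spanned pof9 between ser2, a serine synthesis gene, and SPBC3H7.05c. SPNCRNA.1036 spanned wis2 and SPNCRNA.1658 spanned SPBC215.07c next to arg4, an arginine synthesis gene. SPNCRNA.636, SPNCRNA.655 and SPNCRNA.1286 spanned SPAC18B11.02c, SPAC227.02c and SPCC965.14c. SPNCRNA.1275 alone of these covered no partner whole, with 1277 bases of SPCC1919.13c and 8 and 3 bases of its neighbours.

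Antisense genes were longer than the other ncRNA genes. Their median span was 1288.5 bases (quartiles 840 and 1951, range 76 to 5317), against 806 bases for ncRNA genes over a same-strand coding gene only and 609 bases for those over no coding gene. Why they were longer was not tested. The share of ncRNA genes that were antisense grew with length. It was 20.2% below 300 bases, 37.2% from 300 to below 600, 59.4% from 600 to below 1200, 80.0% from 1200 to below 2400 and 92.0% at 2400 bases and above. SPNCRNA.1263 was the longest at 5317 bases, spanning SPCC576.17c and reaching 1315 bases into SPCC126.01c. Splicing was rare, with 2 antisense genes of 2 exons, prl5 (740 bases, 670 in exons, inside mug121) and prl56 (1123 bases, over the 3′ end of SPACUNK4.13c).

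**Figure D4:**
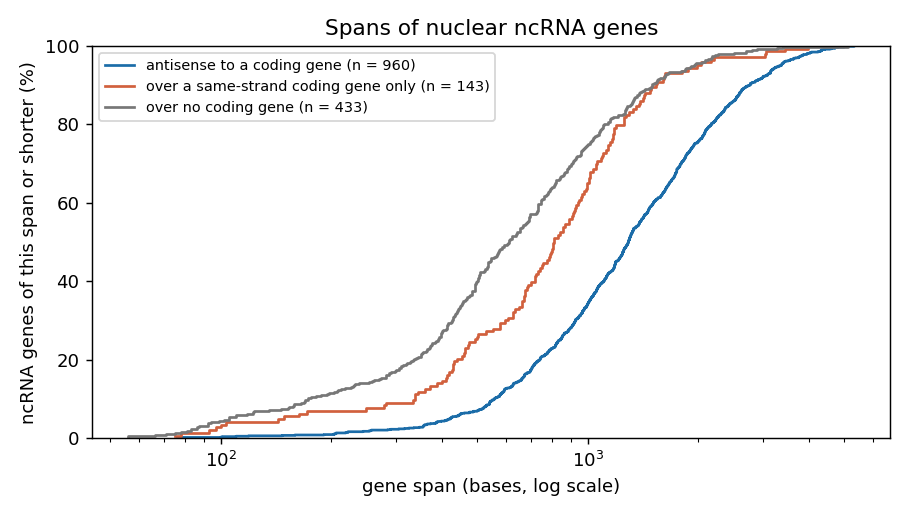
Cumulative share of ncRNA genes (%) by gene span in bases on a log axis, for the 960 antisense genes, the 143 over a same-strand coding gene only and the 433 over no coding gene. The line of the antisense genes lies to the right, with a median of 1288.5 bases against 806 and 609.

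Antisense genes lay on both strands of all 3 chromosomes. Chromosome I held 430, IIc 353 and III 177, which is 7.71, 7.78 and 7.22 per 100 kb. Of all, 475 were on the forward and 485 on the reverse strand. The 124 full windows of 100 kb held between 2 and 15 antisense genes, with a median of 8 and none empty. Double-sided annotation of this kind covered 1078422 bases, or 8.58% of the 3 chromosomes.

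The centromeres held no antisense gene, which follows from the rule, because the centromeric interval was taken as the longest stretch without coding genes. The nearest ones stood close to its edges on 2 chromosomes. On chromosome III SPNCRNA.1173 (1143131 to 1144374), inside SPCC4B3.18, began 515 bases to the right of the interval, and SPNCRNA.1171, over ubc11 and SPCC1259.12c, ended 5218 bases to its left. On chromosome I SPNCRNA.936, over rad50, a partner of mre11 in break repair, lay 985 bases to the right, and SPNCRNA.933, over the ribosomal protein gene rpl1002, 6080 bases to the left. On IIc SPNCRNA.1450, over ngg1, lay 7894 bases to the left, and SPNCRNA.1451 22367 bases to the right. To the left and to the right of the interval there were 8.05 and 7.16 antisense genes per 100 kb on chromosome I, 8.08 and 7.75 on IIc, and 6.01 and 8.62 on III, so the denser side was the left one on I and IIc and the right one on III.

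Partners were somewhat longer than other coding genes and more often had no intron. Their median span was 2034 bases, against 1851 for the other 4036, and 601 of 1087 (55.3%) had 1 exon, against 2015 (49.9%). The share of coding genes with an antisense gene was 15.7% below 1000 bases, 20.3% from 1000 to below 2000, 21.7% from 2000 to below 3000, 24.3% from 3000 to below 4000 and 29.1% from 4000 bases. Within the class of 2000 to below 3000 bases it was 24.9% for genes of 1 exon and 18.6% for genes with introns. In genes of 4000 bases and more the order was the other way, with 28.5% and 30.3%. A longer gene has more bases at which the rule of 1 shared base can be met. The part of this in the lengths and shares was not tested. The stretch before the start codon had a median of 182 bases in partners and 151 in the other genes, and that after the stop codon 241 and 246.

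Base composition was read on RefSeq spans, for 918 antisense genes with the same identifier there (95.6%). Median GC content was 35.8%, against 34.0% for 129 ncRNA genes over a same-strand coding gene only and 32.2% for 378 over no coding gene. In the 524 antisense genes with at least 100 bases over partners and 100 bases elsewhere, the part over partners had a median of 37.1% and the rest 32.4%. The part over partners was the richer one in 436 of them (83.2%).

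In the deposited annotation, none of the factors precipitated or deleted in the study had an antisense ncRNA gene. This held for cnp1, pht1, swr1 and msc1, where 21.2% of all nuclear coding genes had one. By RefSeq the share of coding genes was 75.4%, and no RefSeq value for these factors is given here. Of 15 genes of the Swr1 complex found in the annotation, swc2 and swc3 were partners, both named for subunits of its histone chaperone module in RefSeq. SPNCRNA.1402 covered the 5′ end of swc2 over 349 bases and no coding base, and SPNCRNA.938 covered the 5′ end of swc3 over 523 bases with its start codon. The list counted 2 of 15 (13.3%).

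Kinetochore genes and genes for loading CENP-A were partners in 7 of 27 cases (25.9%), against 21.2% of all nuclear coding genes. Their overlaps were mostly short. cnp3, which encodes CENP-C, was covered over 18.8% at its 5′ end by SPNCRNA.1672, with 0 coding bases. mis6 and mis12 were covered at the 3′ end over 6.57% and 11.2%, and mis15 at the 5′ end over 19.1%. Larger overlaps were those of mis13 (87.2%, SPNCRNA.1416), mis18 (79.5%, SPNCRNA.1142), whose product is needed to load CENP-A, and ams2 (85.4%, SPNCRNA.1252), a GATA-type factor. All coding bases of mis13 and ams2 lay under these ncRNA genes, which is 2 of the 7 partners, against 323 of all 1087.

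Heterochromatin and RNA interference genes numbered 6 partners of 22 (27.3%), against 21.2% of all nuclear coding genes. clr3, a histone deacetylase gene, was covered whole by SPNCRNA.1331 (IIc, 254617 to 257138), which began at the same base as the 3′ end of clr3. epe1, which encodes a JmjC protein that opposes heterochromatin, held the polyadenylated RNA prl67 inside its 3′ part (48.5%). mit1, a remodeller gene, held SPNCRNA.1401 (34.2%). rik1, of the complex of the Clr4 methyltransferase, was covered at the 5′ end over 12.2%. clr1 was touched at both ends by separate genes, SPNCRNA.1569 over 79 bases and SPNCRNA.1570 over 63 bases.

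Among 11 histone genes, hta1 and hhf3 were partners (18.2%, against 21.2% of all nuclear coding genes), and both were covered whole. Over all partners 144 of 1087 were covered whole. The listed histone genes were short, with a median span of 870 bases. SPNCRNA.1194 (chromosome III, 1410745 to 1412364) spanned hta1 with 150 bases to spare at its start, and SPNCRNA.1611 (IIc, 3528749 to 3530128) spanned hhf3, a histone H4 gene, with 58 bases. The other histone genes of the list, among them hht1, hht2, hht3, hta2 and htb1, had none in the deposited annotation.

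Genes listed for meiotic recombination and synapsis were partners in 7 of 22 cases (31.8%), against 21.2% of all nuclear coding genes. The list holds other genes too, such as mcp5 for a dynein anchor. The listed genes had a median span of 1353 bases, against 1889 over all nuclear coding genes. Of the 7 partners, 4 were covered whole, against 144 of all 1087 partners, and the share for partners of like length is not given here. These were rec7, rec12, which encodes the enzyme that makes meiotic DNA breaks, dmc1, the meiotic strand exchange gene, and mcp5. SPNCRNA.760 (chromosome I, 1772501 to 1774232) spanned rec12 and SPNCRNA.904 (3382189 to 3383857) spanned dmc1. hop1, a gene of the meiotic chromosome axis, was covered over 95.1% by SPNCRNA.1602. rec11, a meiotic cohesin gene, and rec24 held SPNCRNA.1180 (32.8%) and SPNCRNA.257 (21.3%) inside. Overlap over rec24 met 0 coding bases.

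Genes of mating, entry into meiosis and sporulation were partners in 7 of 29 cases (24.1%), against 21.2% of all nuclear coding genes. Of the 7, 3 were covered whole, against 144 of all 1087 partners. These were ste6, spo4, a kinase gene, and mfm3, which encodes a mating pheromone precursor. mfm3 was short at 410 bases under SPNCRNA.1381, of 1781 bases. spo14 was covered by SPNCRNA.1473 from its 3′ end (78.9%) and by SPNCRNA.1474 at its 5′ end (13.5%). spn7, a meiotic septin gene, held SPNCRNA.1588 (63%), spo3 held SPNCRNA.790 (22.8%), and isp3, a spore wall gene, was covered over 56.2% by SPNCRNA.606. Regulators such as mei2, mei3, mei4 and ste11 had none in the deposited annotation.

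Genes named for rising in meiosis gave different shares by name. Those named meu, for meiotic expression upregulated, were partners in 9 of 18 cases (50%), and those named mug, for meiotically upregulated gene, in 26 of 113 (23.0%), close to the 21.2% of all coding genes. Among the meu partners the median share covered was 92.9%, against 44.7% over all partners. The coding sequence of meu10, meu14, meu17, meu25 and meu31 was covered in full, and meu22 had 0 coding bases covered. Over all 1087 partners, 323 had every coding base covered and 297 had 0 covered. The mug genes had a median span of 1592 bases, against 1889 over all nuclear coding genes. Among the 26 mug partners 8 were covered whole, against 144 of all 1087 partners. Examples were mug27, which encodes a protein kinase, under SPNCRNA.583 and SPNCRNA.1217 together, and mug66 and mug105, both under SPNCRNA.833. These meu and mug genes were picked as examples after their values were seen.

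Stress genes counted 7 partners of 25 (28%) and genes of phosphate, iron and copper supply, as listed, 6 of 27 (22.2%). Over all nuclear coding genes the share was 21.2%. Of the 7 stress partners 2 were covered whole, against 144 of all 1087 partners. fbp1, the gluconeogenic gene for fructose-1,6-bisphosphatase, was covered whole by SPNCRNA.1324 (IIc, 197369 to 200995), and gut2, a glycerol metabolism gene, whole by SPNCRNA.1235. sty1, the stress-activated kinase gene, was covered over 80.9% with all its coding bases by SPNCRNA.622, and trr1, for thioredoxin reductase, over 70.3%. Overlaps over ssa1, hsr1 and ntp1 were at the 5′ end, covered 6.74%, 10.7% and 10.8%, and met 0 coding bases. In the phosphate, iron and copper list the largest share was 44.3%, for ctr5, a copper transporter gene, under SPNCRNA.923. It was followed by aps1 with 33.4%, pcl1 with 11.4%, adh1 with 9.59%, pho4 with 6.15% and zrt1 with 3.42%. This list holds other genes too, such as zrt1 for a zinc transporter and adh1 for an alcohol dehydrogenase.

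Ribosomal protein genes were partners in 15 of 138 cases (10.9%). They are short, with a median span of 727 bases, and the share over all coding genes below 1000 bases was 15.7%. Of the 15, 8 were covered whole, against 144 of all 1087 partners, and the share for partners of like length is not given here. Among these 8 were rps1101 and rps1102, which encode the same ribosomal protein, under SPNCRNA.870 and SPNCRNA.1015. rps3001 and rps1701 were covered over 2.95% and 2.58%. Since the lists were chosen with earlier results of these data known and no set test was made, no list is called different from coding genes at large.

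**Figure D5:**
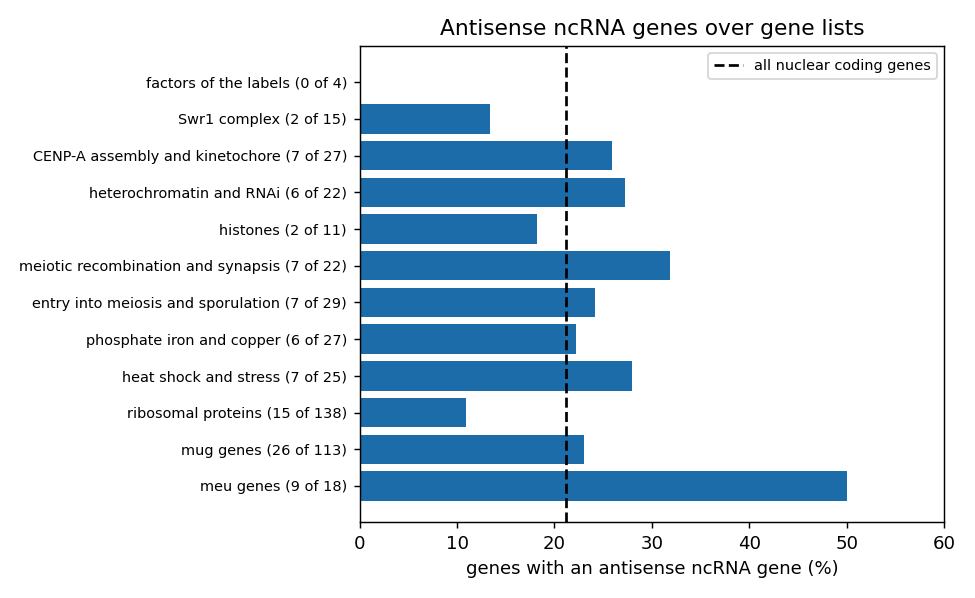
Share of the genes of each list that have an antisense ncRNA gene (%, bars, with partners and genes found), and the share over all nuclear coding genes (dashed line, 21.2%). The lists range from 0 of 4 for the factors of the labels to 9 of 18 for meu genes.

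Few ncRNA genes carried a name of their own, whether antisense or not. A gene name beyond the identifier was given to 29 of the 960 antisense genes and to 68 of all 1536 nuclear ncRNA genes. The 29 were 24 prl genes of 54 in all, tos1 to tos3 (all 3 of that name), rrk1 and meu16. Of all nuclear ncRNA genes, 62.5% were antisense. rrk1, the RNA of ribonuclease P, covered the 5′ end of the proteasome gene pre10 over 208 bases. prl10 (SPNCRNA.1234) spanned nmt1, the thiamine-repressed gene whose promoter is widely used in this yeast. meu16 covered 73.4% of mde6 with all its coding bases. The shortest prl gene among them was prl27, with 147 bases inside tup11, a corepressor gene. prl4 touched mad2, a spindle checkpoint gene, over 20 bases and SPBC20F10.07 over 17. prl25 was a larger part of its partner, taking up 51.9% of atp7.

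RefSeq describes some antisense genes further, and these were looked up after the overlaps were known. SPNCRNA.111, of 3776 bases, is described there as a repressor of ste11 acting in cis, and met an opposite-strand gene, SPBC26H8.12, over 25 bases only. SPNCRNA.584 is described as a meiosis-specific lncRNA of Smp foci and lay with its 2229 bases inside SPCC1919.05, the gene of a Ski complex subunit. SPNCRNA.659, the primary transcript of several snoRNAs, covered 67.6% of psf3, a replication gene. SPNCRNA.1365, described as antisense to cti6, overlapped it over 29 bases.

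The limit of 1 base admitted overlaps of a few bases. SPNCRNA.881 met SPAC24C9.08 and SPNCRNA.1286 met SPCC965.13 over 1 base, SPNCRNA.1598 met ptr2 over 3, and SPNCRNA.1123 met lat1 over 5. Just outside, SPNCRNA.58 directly abutted SPAC20G8.02, and SPNCRNA.486 stood 2 bases from nro1. Of the 576 other ncRNA genes, 46 lay within 50 bases of an opposite-strand coding gene and 279 within 500. A minimum of 50 bases would leave 925 antisense genes and 1010 partners.

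In the RefSeq annotation of ASM294v3, 918 of the 960 antisense genes had a gene of the same identifier, all on the same strand. On chromosomes I and III 578 of 580 had the same start and end. With RefSeq spans for both members of a pair, 838 of the 918 (91.3%) were opposite a coding gene, and 836 kept at least 1 of their partners. RefSeq marked 124 of them as a possible alternative UTR, and 114 of these 124 (91.9%) also overlapped a coding gene of their own strand in the deposited annotation, against 26 of the other 794 (3.27%). That annotation holds more ncRNA genes, and by the same rule 5444 of its 7171 (75.9%) were antisense, over 3857 of 5113 coding genes (75.4%). The share of coding genes with an antisense ncRNA gene thus differed between the annotations, at 21.2% in the deposited one.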

How the data were processed

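Chromatin immunoprecipitation libraries of 25 samples in 13 groups were listed in the labels, but the 2 files used here hold values of no sample. They give feature positions in the 9-column gene annotation the authors deposited, and sequence lengths in an index of the reference. The remaining file holds sequence names only and was not used. Build ASM294v2 and the tools bedtools, deepTools 2.5.3, SAMtools, Bowtie2 and BWA are named in the submitters' processing notes, without their roles. No source used here says how the annotation was made. Depth is unknown, no count model or test was used, and the antisense genes and lists were chosen with earlier results of these data known. The genes named follow a rule: the longest genes and overlaps in all and per position class, the partners and ncRNA genes with most overlaps, list members, named or spliced ncRNA genes, those nearest to the centromeres, and those at the limit of the rule. Positions from ASM294v3 and from the deposited build were never mixed. Of the partners, 1077 of 1087 were found in RefSeq by identifier, and 0 differed in strand. Of the listed symbols, eic1, mnd1, pho84, tgp1 and hsp104 were found through RefSeq symbols, vps72 was not found, and mnd1 and mcp7 named the same gene, counted once. The result for 1 listed partner is not reported here. The pairing was tested on simulated data, where 134 of 134 planted pairs were recovered. Python 3.11.15, numpy 2.4.6, scipy 1.17.1 and matplotlib 3.10.9 were used.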

Additional observations from a re-analysis of the deposited data

How the results depend on the processing

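No paired analysis was possible because no file used holds a value of a sample. Of 53 values under alternatives, 41 stayed within 1.5 times the reported count or within the 95% interval of the reported share or median, and 12 moved. These limits are a yardstick only, since 1 annotation is enumerated and many alternatives are subsets of the reported pairs. Counts within them could still differ much, as with 745 antisense genes by coding span against 960 reported. With a minimum overlap of 50 and 100 bases the median share of a partner covered per pair, 40.3% as reported, was 45.5% and 49.7%. With 100 bases the 3′ pairs made up 24.1% and the pairs inside 22.9%. Such a minimum drops the pairs of shortest overlap by construction. The shortest overlap was 1 base in 5′ pairs and in 3′ pairs, and 76 bases in pairs inside. By coding span 822 of the 1182 pairs were left. Of these, 5′ pairs made up 34.7%, 3′ pairs 20.7%, pairs over both ends 39.2% and pairs inside 5.47%. With the longest overlap of each antisense gene alone, 3′ pairs made up 21.7% and pairs inside 25%. Without chromosome I there were 530 antisense genes and without IIc 607, by construction. The comparison with RefSeq spans was chosen after seeing the data and gave 838. Transcript ends and the extent of ncRNA annotation limit these counts, and nothing here measures RNA.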

Other observations

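The share of antisense genes among ncRNA genes differed with the systematic identifier. Among ncRNA genes numbered below 600, 126 of 457 (27.6%) were antisense, and among those numbered 600 and above 834 of 1079 (77.3%). The lowest share in a block of 100 numbers was 12.3%, for the block from 200, and the highest was 86.3%, for the block from 1600. The block from 500 had 60.3%, already closer to the later ones. Length moved with the numbers too. The median antisense gene had 1354.5 bases from number 600 on and 751 bases below it, and ncRNA genes over no coding gene had 885.5 and 455 bases. Antisense genes were thus the longer ones on both sides of number 600, a boundary chosen after the values were seen. The part of annotation history in these differences was not tested.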
